A study of Homo sapiens with 25 samples.

Results

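Sprouty and SPRED proteins are feedback inhibitors of receptor tyrosine kinase signalling, and 5 of their genes, SPRY1, SPRY2, SPRY4, SPRED1 and SPRED2, are described here in human cell lines given erlotinib, an inhibitor of the EGFR kinase. The members were chosen by name: every probe set annotated to exactly 1 of these symbols was taken, and the probe set with the highest mean over all arrays stood for its gene. This gave 10 probe sets of 54613 on the array, and 5 genes of 19775 named by a single symbol. All 5 were among the 12643 genes tested, which lay above a log2 value of 4 on at least 3 arrays. SPRY3 and SPRED3, the other genes of the families, lay above 4 on 0 arrays and were not tested.

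The series held 25 Affymetrix expression arrays of 3 human cell lines, of which BT20 and MDA-MB-453 are established breast cancer lines. BT20 was sampled before erlotinib (0 min, 4 arrays) and at 30 min, 6 h and 24 h of 10 µM erlotinib (3 arrays each). Of MDA-MB-453, and of a line whose labels give no more than the name MCF, there were 3 arrays at 0 min and 3 at 24 h. Untreated cells were not sampled at the later times, so in each comparison the drug and the time elapsed cannot be told apart. The labels do not say that replicates were separate cultures, so p-values measure only the spread between these samples, which may be technical. Values were deposited as log2 intensities; the MCF arrays form a second part of the series on a scale of their own, and levels are therefore compared only between BT20 and MDA-MB-453. Levels of different probe sets are not compared with each other.

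The mean log2 level of EGFR before treatment was 12.38 for BT20 and 3.53 for MDA-MB-453; on the scale of the MCF arrays it lay below the filter of 4. All 4 epithelial markers lay above 4 in every line and both blood markers measured lay below it. COL1A1 among 3 fibroblast markers lay above 4 in every line, and CDH5 of 2 endothelial markers did so in BT20; their part in the results was not tested. The fourth BT20 array at 0 min stood apart: across tested genes it correlated with the 6 h arrays at 0.990 to 0.992 and with the other 0 min arrays at 0.971 to 0.975. BT20 results are therefore also given from a fit with a shared term for replicate 4 and the 6 h arrays, which sets 6 h against replicate 4 alone and the other times against replicates 1 to 3. No label groups these arrays: the term was inferred from the values.

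When a growth factor receptor is activated, adaptor proteins recruit SOS exchange factors, which load Ras with GTP; Ras then activates a cascade of kinases that ends in ERK. ERK activity induces Sprouty genes, whose proteins are phosphorylated, bind adaptors such as GRB2 and dampen the route that induced them. SPRED proteins act on Ras itself: they carry neurofibromin (NF1), a protein that makes Ras hydrolyse GTP, to the membrane. Messenger RNA of these genes is widely used as a readout of ERK pathway activity.

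In BT20, 4 of the 5 members fell by 24 h of erlotinib. SPRY4 fell by 4.76 on the log2 scale, SPRED2 by 2.75, SPRED1 by 2.75 and SPRY2 by 2.42, whereas SPRY1 differed by -1.08 and did not pass the test. At this time 13.9% of all tested genes were called lower (limma, Benjamini-Hochberg adjusted p under 0.05), and 32.8% were called in either direction. The median change of the members was -2.75, beside 0.03 over all tested genes.

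**Figure D1:**
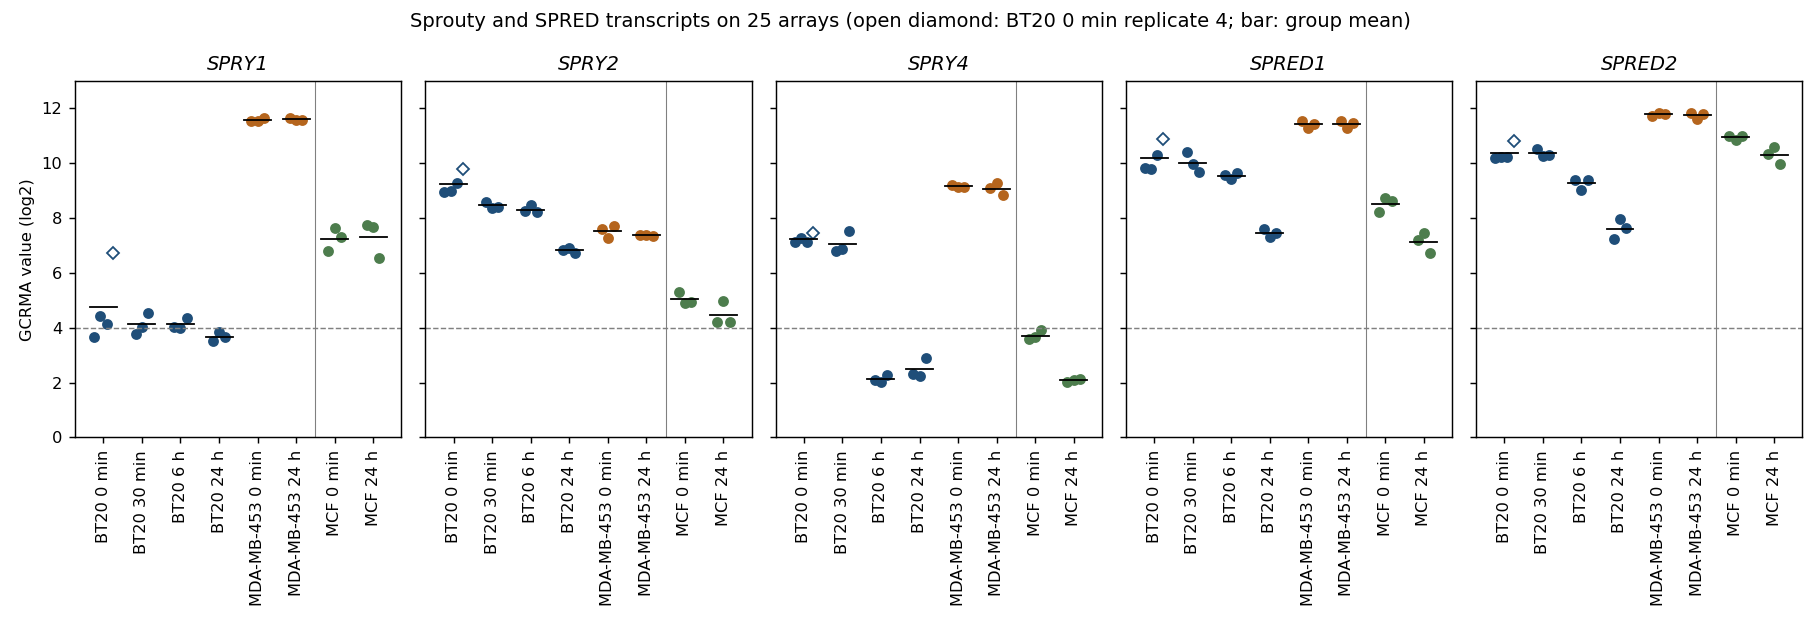
Log2 level of the lead probe set of each member on every array, by line and time of erlotinib; each point is 1 array, each bar a group mean, the open diamond replicate 4 at 0 min, the dashed line the filter at 4, and the vertical line parts off the separately scaled MCF arrays. In BT20 the 24 h points of SPRY2, SPRY4, SPRED1 and SPRED2 all lie below the 0 min points, and in MDA-MB-453 the 0 min and 24 h points overlap for all 5 members.

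SPRY4, a Sprouty that inhibits signalling to ERK, showed the earliest large fall. Its BT20 arrays read 7.15, 7.28, 7.13 and 7.45 at 0 min and 6.79, 6.89 and 7.51 at 30 min. They read 2.111, 2.02 and 2.28 at 6 h and 2.31, 2.25 and 2.89 at 24 h. The 0 and 30 min arrays overlapped, while every 6 h and 24 h array lay below all of them. The change was -5.12 ± 0.17 (SE) at 6 h (adjusted p = 4.4e-14) and -4.76 ± 0.17 at 24 h (adjusted p = 1.62e-14). Ordered from the largest fall, SPRY4 was number 4 of the 12643 tested genes at 6 h and number 16 at 24 h. Both later groups lay below 4, where probe sets respond little, so the size of the fall is not exact. The 24 h level did not pass the test against 6 h (0.35 ± 0.18, adjusted p = 0.129).

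SPRY2 binds the ubiquitin ligase CBL as well as GRB2 and is the most studied Sprouty in EGFR signalling. Its BT20 arrays read 8.95, 8.995, 9.27 and 9.78 at 0 min, 8.59, 8.38 and 8.42 at 30 min, 8.25, 8.49 and 8.21 at 6 h and 6.84, 6.92 and 6.74 at 24 h. All arrays at each later time lay below every 0 min array, as they did for 21.3% of tested genes at 6 h and 19.6% at 24 h. The 30 min difference was -0.79 ± 0.19 and did not pass the test over all genes (adjusted p = 0.788); at this time 0.0158% of tested genes were called, and 2.41% had every 30 min array below every 0 min array. With array weights by the default method, which did not converge, it was -0.60 (adjusted p = 0.00417), and 1.06% of tested genes were called. With gene-by-gene weights, added after those calls had been seen, it was -0.60 (adjusted p = 0.00674), and 0.688% were called. SPRY2 fell by 0.93 ± 0.19 at 6 h (adjusted p = 0.000997) and by 2.42 ± 0.19 at 24 h (adjusted p = 3.58e-09).

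SPRED2, an NF1-binding inhibitor of Ras, read 10.18, 10.23, 10.22 and 10.82 on the BT20 arrays at 0 min and 10.53, 10.26 and 10.30 at 30 min. It read 9.38, 9.03 and 9.39 at 6 h and 7.23, 7.97 and 7.64 at 24 h. The 30 min arrays overlapped the untreated ones, the 6 h arrays lay below them, and the 24 h arrays lay below the 6 h arrays. SPRED2 fell by 1.09 ± 0.18 at 6 h (adjusted p = 0.00015) and by 2.75 ± 0.18 at 24 h (adjusted p = 1.7e-10). Of its other probe sets, 1 lay above 4 on 0 arrays, and 1, above 4 on 6 arrays, changed by -0.82 at 6 h and -1.26 at 24 h, both called. With the mean of all its probe sets SPRED2 changed by -0.75 at 6 h, -1.42 at 24 h and -0.67 between 6 h and 24 h, all called.

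SPRED1, the NF1-binding protein whose loss causes Legius syndrome, read 9.82, 9.81, 10.29 and 10.88 at 0 min and 10.40, 9.96 and 9.70 at 30 min in BT20. It read 9.58, 9.42 and 9.65 at 6 h and 7.59, 7.31 and 7.46 at 24 h. The 6 h arrays lay just under the lowest untreated array and the 24 h arrays lay far below it. SPRED1 fell by 0.65 ± 0.22 at 6 h (adjusted p = 0.0268) and by 2.75 ± 0.22 at 24 h (adjusted p = 4.71e-09). The 6 h call was lost without any 1 of the 6 h arrays, without untreated replicate 3 and without untreated replicate 4, with an adjusted p of 0.051 to 0.0936. Without replicate 4 the change was -0.42.

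The 3 probe sets of SPRED1 gave different sizes at 6 h. The lead probe set changed by -0.65, the second by -1.41 and the third by -3.52, in a fit of all 29774 probe sets that passed the filter, of which 14.7% were called lower. The third read 8.15, 8.18, 8.49 and 6.78 at 0 min and 4.56, 4.61 and 3.98 at 6 h, so replicate 4 was its lowest untreated array and the highest one of the lead probe set. At 24 h the 3 probe sets were closer, at -2.75, -2.21 and -2.71. With the shared term the 6 h changes were -1.33, -1.60 and -2.40.

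**Figure D2:**
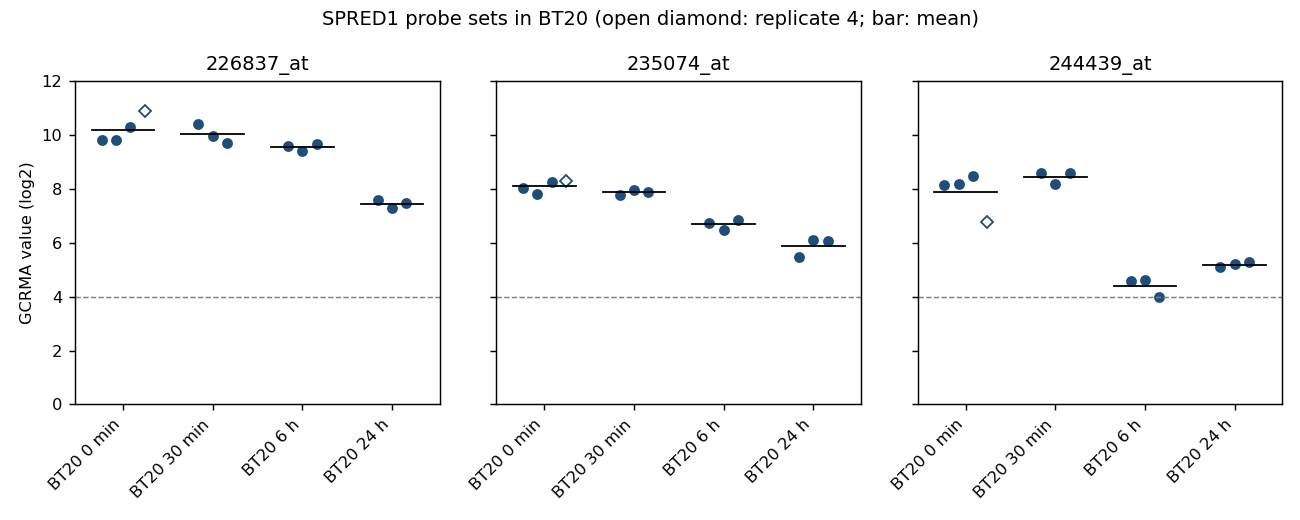
Log2 level of the 3 SPRED1 probe sets on each BT20 array by time of erlotinib; each point is 1 array, each bar a group mean and the open diamond replicate 4 at 0 min. All 3 probe sets are lower at 24 h than at 0 min, and they differ in how far they had fallen at 6 h.

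SPRY1, known for restraining RET signalling in the kidney, lay near the filter in BT20. Its arrays read 3.67, 4.44, 4.14 and 6.72 at 0 min and 3.51, 3.83 and 3.66 at 24 h, and the highest value was that of replicate 4. The change was -0.62 ± 0.46 at 6 h (adjusted p = 0.311) and -1.08 ± 0.46 at 24 h (adjusted p = 0.0832), with a 95% interval from -2.04 to -0.11 at 24 h. Without replicate 4 of the untreated arrays the change was 0.041 at 6 h and -0.42 at 24 h (adjusted p = 0.262); without replicate 1 the 24 h change passed the test (-1.44, adjusted p = 0.0204).

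At 6 h, 4 of 5 members were thus called lower, beside 16.6% of all tested genes. With the shared term all 5 were called lower, beside 1.21% of tested genes: the changes were -5.31 ± 0.25 for SPRY4, -2.60 ± 0.39 for SPRY1, -1.55 ± 0.23 for SPRED2, -1.46 ± 0.25 for SPRY2 and -1.33 ± 0.27 for SPRED1. These values rest on 1 untreated array, which is assumed to vary like the other groups, and that of SPRY1 restates its reading of 6.72 on this array. At 24 h the shared term left the same 4 members called, at -4.70 for SPRY4, -2.60 for SPRED2, -2.52 for SPRED1 and -2.24 for SPRY2, beside 15.4% of tested genes called lower.

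Between 6 h and 24 h the members parted. By lead probe set SPRED1 fell further by 2.10 ± 0.24, SPRED2 by 1.65 ± 0.19 and SPRY2 by 1.48 ± 0.21. In this comparison 20.3% of tested genes were called lower. The other SPRED1 probe sets differed: the second changed by -0.80 and was called. The third changed by 0.80, not called, with every 24 h array above the 6 h arrays. With the mean of its probe sets SPRED1 changed by -0.70, called. The second tested SPRED2 probe set changed by -0.44, not called. With the shared term the further fall was 1.19 for SPRED1 (adjusted p = 0.0235) and 1.04 for SPRED2 (adjusted p = 0.0212), SPRY2 did not pass (-0.78, adjusted p = 0.113), and SPRY1 was called higher (2.18, adjusted p = 0.00399). In that fit 4.38% of tested genes were called lower. The SPRY1 value rests on its level on replicate 4: without the term the 24 h arrays did not pass the test against the 6 h arrays (-0.46, adjusted p = 0.492).

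**Figure D3:**
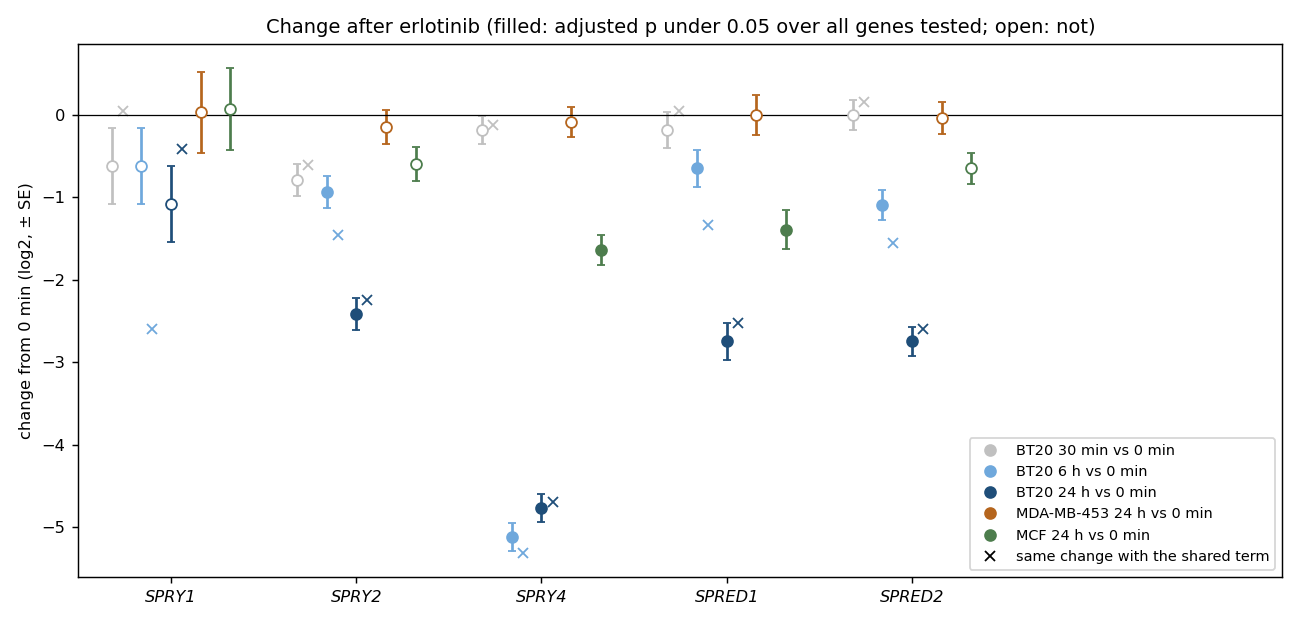
Log2 change of each member from its own 0 min group, by line and time, with bars of ± 1 SE from the limma fit and crosses for the same change with the shared term; filled points have an adjusted p under 0.05. Lead probe sets are plotted. SPRY4 is near its lowest point at 6 h, and SPRY2, SPRED1 and SPRED2 are lower at 24 h than at 6 h. No member is called in MDA-MB-453.

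Promoters of the members whose lead probe sets fell further between 6 h and 24 h in BT20 are shown as these moved together. Each is the 250 bases before a RefSeq transcription start (GRCh38.p14), written 5′ to 3′ on the gene's strand: SPRY2 at chr13:80341127-80341376 (minus strand), SPRED1 at chr15:38252586-38252835 (plus strand) and SPRED2 at chr2:65432600-65432849 (minus strand).
SPRY2: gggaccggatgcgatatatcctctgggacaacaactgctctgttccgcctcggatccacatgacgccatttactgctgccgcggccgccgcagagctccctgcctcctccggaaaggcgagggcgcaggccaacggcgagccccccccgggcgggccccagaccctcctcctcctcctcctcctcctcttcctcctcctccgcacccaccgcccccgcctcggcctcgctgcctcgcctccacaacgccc
SPRED1: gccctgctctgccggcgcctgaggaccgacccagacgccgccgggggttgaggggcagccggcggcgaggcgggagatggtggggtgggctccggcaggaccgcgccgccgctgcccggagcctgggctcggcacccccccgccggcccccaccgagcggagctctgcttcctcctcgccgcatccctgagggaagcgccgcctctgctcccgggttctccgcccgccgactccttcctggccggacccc
SPRED2: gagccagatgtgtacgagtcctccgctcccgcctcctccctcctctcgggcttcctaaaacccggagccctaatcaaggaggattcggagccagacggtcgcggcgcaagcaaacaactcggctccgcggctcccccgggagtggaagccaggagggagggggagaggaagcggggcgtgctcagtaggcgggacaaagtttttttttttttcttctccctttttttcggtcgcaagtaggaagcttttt
Their GC content was 70.4% for SPRY2, 78.4% for SPRED1 and 58.8% for SPRED2, beside a median of 58% over 35116 such windows. Both strands were searched for an ETS motif (CCGGAAG, in 8.52% of all windows), an AP-1 motif (TGANTCA, 6.57%), a CRE (TGACGTCA, 1.65%), a FOXO motif (TGTTTAC, 2.98%) and a TEAD motif (GGAATG, 11.9%). None of these letters occurred in the 3 windows shown, hence no capitals; this says nothing of the factors. Among 9 windows of the members there was 1 match, an ETS motif in a window of SPRY1.

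MDA-MB-453 cells showed no called change in any member after 24 h, in a comparison where 5.77% of tested genes were called. SPRY4 read 9.22, 9.13 and 9.15 at 0 min and 9.10, 9.29 and 8.85 at 24 h. SPRED2 read 11.74, 11.83 and 11.80 at 0 min and 11.84, 11.60 and 11.82 at 24 h. By lead probe set the arrays of the 2 times overlapped for all 5 members; the share over all tested genes is not given here. The second SPRED1 probe set changed by 0.25, not called, with every 24 h array above the 0 min arrays. The 95% interval of the change ran from -0.46 to 0.29 for SPRY4, from -0.57 to 0.29 for SPRY2, from -0.50 to 0.50 for SPRED1 and from -0.44 to 0.36 for SPRED2. That of SPRY1 was wider, from -1 to 1.07.

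The 24 h change in BT20 was larger than in MDA-MB-453 for the same 4 members when the difference itself was tested: by -4.68 ± 0.25 for SPRY4, -2.75 ± 0.33 for SPRED1, -2.71 ± 0.26 for SPRED2 and -2.27 ± 0.28 for SPRY2. SPRY4 ended below 4 in BT20, so its size is not exact, and with the mean of its probe sets SPRED2 was at -1.22. The second tested SPRED2 probe set, under 4 on every BT20 array, was at -0.93 and was not called. In the test by gene 7.12% of genes were called lower. SPRY1 did not pass (-1.11 ± 0.68, adjusted p = 0.352).

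The lines also differed before treatment. SPRY1 read 11.54, 11.55 and 11.64 in untreated MDA-MB-453, 6.83 ± 0.46 above BT20. As 3 of the 4 BT20 arrays lay between 3.67 and 4.44, near the filter, this size is not exact; the difference BT20 minus MDA-MB-453 was -3.93 with the mean of probe sets. SPRY4 was 1.92 ± 0.17, SPRED2 1.43 ± 0.18 and SPRED1 1.23 ± 0.22 lower in BT20 than in MDA-MB-453 (-0.95 for SPRED2 with the mean of probe sets), whereas SPRY2 was 1.73 ± 0.19 higher in BT20. By lead probe set all 5 differences passed the test, as did 66.7% of all tested genes. For BT20 minus MDA-MB-453 the second SPRED1 probe set was at -1.88, called. The third was at 0.25, not called, and its arrays overlapped between the lines.

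In MCF, SPRY4 and SPRED1 were called lower after 24 h in the fit of all arrays, beside 2.02% of tested genes. SPRY4 read 3.58, 3.65 and 3.93 at 0 min and 2.02, 2.09 and 2.14 at 24 h, all under 4, so its change of -1.64 ± 0.18 (adjusted p = 1.29e-05) is not exact in size. SPRED1 read 8.24, 8.72 and 8.61 at 0 min and 7.20, 7.45 and 6.74 at 24 h, a change of -1.39 ± 0.24 (adjusted p = 0.00142). SPRED2 arrays did not overlap either, reading 11.00, 10.84 and 11.00 before and 10.33, 10.59 and 9.97 after, but the change of -0.65 ± 0.19 did not pass (adjusted p = 0.0712); 6.32% of tested genes had all 24 h arrays lower. SPRY2 changed by -0.59 ± 0.21 (adjusted p = 0.154) and SPRY1 by 0.07.

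With the MCF arrays fitted alone no member was called, at an adjusted p of 0.0744 for SPRY4 and 0.216 for SPRED1, and 0.00791% of tested genes were called. The fit of all arrays assumes 1 spread for all lines, while the median SD within a group was 0.295 and 0.301 in the MCF groups and 0.095 to 0.241 in the others. In the fit of all lines without replicate 2 of the MCF 24 h arrays, 4 members were called, beside 2.76% of tested genes. The BT20 change minus the MCF change was -2.10 ± 0.26 for SPRED2 (-1.03 with the mean of its probe sets), -1.82 ± 0.28 for SPRY2 and -1.35 ± 0.33 for SPRED1, each called, beside 5.54% of genes called lower. The second tested SPRED2 probe set was at -0.77 for this difference and was not called. For SPRY4 the lines are not compared, since every MCF array lay under 4 and could not have fallen as far as in BT20.

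Other genes of the pathway were read from lists by role, drawn up with earlier results of these data known. The counts from these lists describe the genes and are not independent support. Of 15 further ERK feedback and output genes, 14 were called lower in BT20 at 6 h (12 with the shared term) and 15 at 24 h, with a median change of -1.98, beside 16.6% and 13.9% of all tested genes called lower. At 24 h FOSL1, a subunit of AP-1, changed by -5.98 and DUSP6, a phosphatase of ERK, by -5.93. EPHA4, a receptor kinase, changed by -4.58 and ETV4, an ETS factor, by -2.66. DUSP6 ended at a mean of 3.27, under 4, so the size of its fall is not exact. In MDA-MB-453 0 of the 15 were called, beside 5.77% of all tested genes. That count is near the share and is not read as absence of a response. The median change of the 15 in that line was -0.285, beside 0.021 over all tested genes. FOSL1 (2.23) and ETV4 (3.45) lay under 4 there before treatment, where a fall could hardly show. In MCF, 3 fell in the fit of all arrays, where 2.02% of tested genes were called lower: ETV5 by 2.61, FOSL1 by 1.99 and DUSP6 by 1.56. With the MCF arrays alone ETV5 was still called (adjusted p = 0.0334), while DUSP6 (adjusted p = 0.198) and FOSL1 (adjusted p = 0.389) were not, and FOSL1 ended at 2.53, below the filter.

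Upstream, 8 of 12 genes from receptor to Ras were tested, and at 24 h in BT20 3 rose and 0 fell, beside 18.9% of all tested genes called higher and 13.9% called lower. The exchange factors SOS1 and SOS2 rose by 2.31 ± 0.14 and 1.86 ± 0.29, and the adaptor GAB1 by 1.00 ± 0.20. EGFR itself changed by -0.54 (adjusted p = 0.0841). Of the 7 kinase cascade genes tested among 10, MAPK3 (ERK1) rose by 0.81 ± 0.23 and 0 fell; with the shared term 1 rose and 1 fell. Of 9 tested partners among 10, proteins that bind, modify or degrade Sprouty and SPRED, the scaffold CAV1 fell by 0.80 ± 0.18 and the phosphatase subunit PPP2CA by 0.31 ± 0.09, and 0 rose. That is 2 of 9 called lower beside 13.9% of all tested genes, which is read as no result about the partners.

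**Figure D4:**
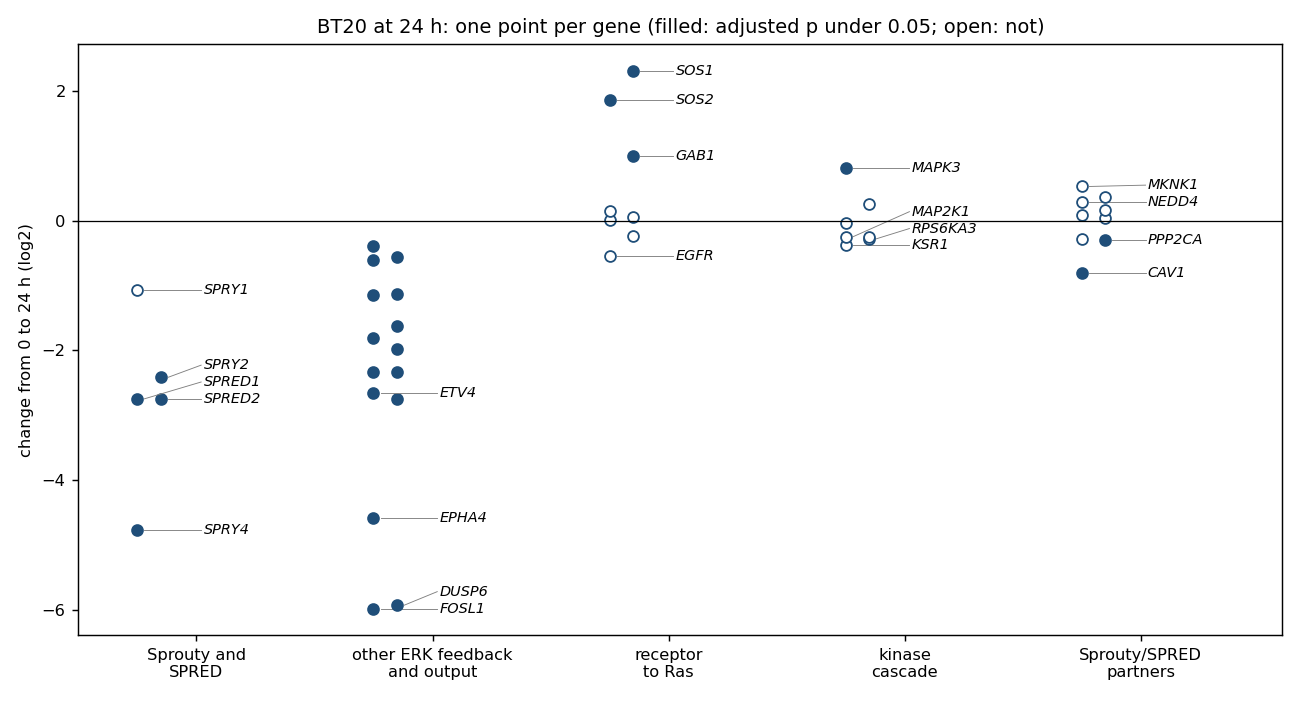
Log2 change from 0 to 24 h of erlotinib in BT20, with each tested gene as 1 point in its list; filled points have an adjusted p under 0.05. The 4 called members and all 15 other ERK feedback and output genes lie below 0, and SOS1, SOS2 and GAB1 lie above it.

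Across the 13 BT20 arrays the members fell into patterns, given as Pearson correlations of levels that share arrays and time groups. SPRED1 followed SPRED2 at 0.954 and SPRY2 at 0.951, SPRED2 followed SPRY2 at 0.922, and SPRY4 followed SPRED2 at 0.819, SPRY2 at 0.713 and SPRED1 at 0.688. The genes most like SPRY4 were NUAK1 (0.993), CCND1 (0.993) and CD274 (0.991). Those most like SPRY2 were SGK1 (0.974), TGFA (0.969) and ZFP36L2 (0.966). FERMT1 (0.982), SLC37A3 (0.982) and DLEU1 (0.981) were closest to SPRED1, and ZNF697 (0.985), ETV5 (0.983) and HIVEP3 (0.981) to SPRED2. The pattern of SPRY1 rests on its high value on replicate 4, and its closest genes were ST3GAL1 (0.888), RBIS (0.886) and GPR157 (0.868).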

How the data were processed

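Expression was measured on 25 Affymetrix arrays. The authors deposited log2 values made with GCRMA 2.20.0 in R 2.11.1, per the submitters' processing notes; the further steps are not given in the sources used here. The 75th percentile was 7.65 to 7.81 on the 19 arrays of the first part and 7.27 to 7.32 on the 6 MCF arrays. Of 54613 probe sets 41091 carried 1 symbol, 1801 several and 11721 none. The highest-mean probe set led each gene, and genes above a log2 value of 4 on 3 or more arrays were tested. All arrays were fitted with 8 group means in limma 3.58.1 (R 4.3.3), with 17 residual degrees of freedom, two-sided tests and Benjamini-Hochberg adjustment over 12643 genes; intervals are 95%. The fit was tested on simulated data. The number of arrays limits the precision. The labels do not say that replicate numbers pair the samples, which were fitted as unpaired. The members, lists and tests were chosen with earlier results of these data known. From each list the 4 genes with the smallest p at 24 h in BT20 are the candidates named; ETV5 was named for MCF after its value was seen. Array weights by the default method did not converge (weights up to 819); a gene-by-gene method (up to 5.78) was added after those calls had been seen. Sequences are from RefSeq.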

Additional observations from a re-analysis of the deposited data

Results flagged for a closer look

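SPRED2 on BT20 replicate 4 at 0 min lay far from the other untreated arrays: at 10.82, its gap was 0.929 of the group's range, above Dixon's 95% critical value for 4 arrays. The same array was not past that value for SPRY1 (0.747), SPRY2 (0.618), SPRED1 (0.551) or SPRY4 (0.509).

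By lead probe set the 24 h change differed between lines in a test of the difference itself. BT20 minus MDA-MB-453 was -4.68 for SPRY4, -2.75 for SPRED1, -2.71 for SPRED2 and -2.27 for SPRY2. BT20 minus MCF was -3.13 for SPRY4, -2.10 for SPRED2, -1.82 for SPRY2 and -1.35 for SPRED1. These comparisons share the BT20 arrays. SPRY4 lay under 4 on every MCF array and ended under 4 in BT20, so its differences are bounded by the low end of the scale, and that against MCF is not read as a difference between lines.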

How the results depend on the processing

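Of 105 counts of called members under other settings 99 stayed within 1.5 times the reported count, and of 525 member changes 490 kept direction and side of the threshold. With array weights by the default method, which did not converge, 1 member was called in BT20 at 30 min, beside 1.06% of all tested genes. It called 5 at 24 h against 6 h, beside 72.5% of all genes, and 5 in MCF, beside 95.2%. Counts beside such shares say nothing of the members. By the gene-by-gene method, chosen after seeing the data, 1 was called at 30 min, beside 0.688%, and 4 in MCF, beside 29.4%. Fitting MCF alone left 0. Leaving out 1 array gave 2 to 4 calls in MCF, 3 to 4 in BT20 at 6 h and 4 to 5 at 24 h. Signs turned among changes that were not called in the reported fit. Some of these were near 0, but those of SPRY1 were -0.62 at 30 min and 6 h and -0.46 at 24 h against 6 h. At 30 min SPRY1 became 0.10 and 0.10 with the 2 kinds of array weights and 0.043 with the shared term of replicate 4 and the 6 h arrays, and SPRED1 became 0.052 with the mean of probe sets, 0.06 and 0.045 with array weights and 0.046 with the shared term; SPRED2 became -0.011 with centring. SPRY1 at 6 h became 0.012 with default array weights, and at 24 h against 6 h 2.18 with the shared term. In MDA-MB-453 SPRED1 became 0.081 and 0.066 with array weights and 0.014 with repeated quantile normalization, and SPRED2 0.055 and 0.041 with array weights. Leaving out 1 array gave, at 30 min, -0.98 to 0.043 for SPRY1, -0.37 to 0.046 for SPRED1 and -0.08 to 0.15 for SPRED2, and at 6 h -0.98 to 0.041 for SPRY1. It gave in MDA-MB-453 -0.19 to 0.03 for SPRY4, -0.066 to 0.074 for SPRED1 and -0.082 to 0.04 for SPRED2, and in MCF -0.16 to 0.46 for SPRY1. The lead SPRED1 change at 6 h was -0.34 and -0.35 with the array weights and -1.86 with the mean of probe sets. The cause of these moves was not tested.

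Arrays of the same replicate number showed no regular shared deviation: correlations ran from -0.642 (MDA-MB-453 replicate 3) to 0.796 (MCF replicate 2). In the replicate block BT20 replicate 4 at 0 min had no partner, so the block set that array aside. With the block SPRED1 at 6 h was -0.42 (adjusted p = 0.0714). SPRY1 became 0.043 at 30 min and 0.041 at 6 h, and SPRED1 at 30 min 0.046. These changes are the same as those without that array. No paired analysis was possible because of nesting for BT20 against MDA-MB-453 at 0 min. Low signal limits SPRY1 in BT20 and SPRY4 in MCF.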
